A study of Mus musculus with 15 samples.

Results

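The genes described here encode the receptors that sense glutamate and the transporters that move it. They comprise 30 genes chosen by name as receptors and transporters of glutamate, out of 55401 genes counted in mouse hippocampus. They fall into 4 AMPA, 5 kainate, 7 NMDA, 1 delta and 7 metabotropic receptor genes, 3 vesicular transporters and 3 plasma membrane transporters. All 30 were found, and 29 of them were among the 19536 genes tested, while Grm6 had too few reads. RNA was sequenced from the hippocampi of 15 female mice. The methods of the paper describe the mice used as 18 to 20 months old. Its discussion of dendritic spines gives a higher age, and the age when RNA was taken is not stated. Tg2576 mice (labelled +/+) carry human APP with the Swedish mutation under the prion protein promoter, and WT mice (labelled -/-) were negative littermates. Each genotype was given vehicle, which was sesame oil, or DHA (docosahexaenoic acid, an omega-3 fatty acid) at 450 mg/kg by daily gavage for 5 weeks, and the DHA was diluted in the same oil. Each genotype had 4 mice on vehicle, and DHA went to 4 WT and 3 Tg2576 mice.

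Glutamate is the main excitatory transmitter of the hippocampus. It is loaded into synaptic vesicles by vesicular transporters, acts after release on ion channel receptors of the AMPA, kainate and NMDA classes and on metabotropic receptors that couple to G proteins, and is cleared by transporters of the plasma membrane, mostly on astrocytes. AMPA receptors carry the fast current, NMDA receptors let in calcium and start the synaptic changes that underlie learning, and kainate receptors tune release and excitability. Hippocampal tissue holds all of these cells together, so fewer cells of a type and less RNA per cell cannot be told apart in these data.

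The deposited files hold raw read counts. Depth was 17372864 to 46596489 counts a mouse, with a median of 25645977. App, whose counts may take up reads of the human transgene, was at 1572 to 1787 CPM (counts scaled to a common library size with TMM factors) in the 8 WT mice and at 2076 to 2787 CPM in the 7 Tg2576 mice, so no mouse went against its label. Markers of dentate, CA1 and CA3 neurons were present in each group. Summed markers of the choroid plexus, a tissue next to the hippocampus, spanned 60.1 to 5786 CPM over the mice. The mice also differed in the balance between long and short genes. In each mouse, the median deviation of the longest quartile of genes from their mean over mice (exonic length of at least 6039 bases), less that of the shortest quartile (at most 2069 bases), ranged from -0.37 on the log2 scale in Tg2576 DHA replicate 1 and -0.32 in Tg2576 vehicle replicate 4 to 0.21 in Tg2576 DHA replicate 2. Of the 29 members tested, 17 belong to the longest quartile. A fit with an offset for gene length, named the length offset below, is given beside some results. The part of gene length in the results was not tested. The libraries shared a flow cell lane, and no batch is given in the labels.

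The fit was made over all genes in edgeR (quasi-likelihood F test), with 1 coefficient per group. Genes with an unadjusted p under 0.01 were called, and the adjusted p is the Benjamini-Hochberg value over all genes tested. Fold changes are log2 values with their standard errors. The exact permutation test of a single gene is two-sided on the absolute difference of mean log2 levels, and its smallest possible p is 0.0286 in both sizes of comparison, 4 mice against 4 and 4 against 3. In all 5 comparisons, 5 members were called at least once, namely Grin2b, Grm3, Grm2, Slc17a7 and Grik3, and in edgeR none of the 30 had an adjusted p under 0.05.

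Of these 5 genes, 4 have a promoter entry in RefSeq (GRCm38.p6), and the 250 bases before the annotated start of these 4 are shown. Capitals mark GC boxes, spelled GGGCGG or CCGCCC on the other strand, the letters bound by Sp1 and its relatives. Grik3 lies at chr4:125490446-125490695 on the plus strand, Grm2 at chr9:106656110-106656359 and Grm3 at chr5:9725353-9725602 on the minus strand, and Slc17a7 at chr7:45163671-45163920 on the plus strand.
Grik3: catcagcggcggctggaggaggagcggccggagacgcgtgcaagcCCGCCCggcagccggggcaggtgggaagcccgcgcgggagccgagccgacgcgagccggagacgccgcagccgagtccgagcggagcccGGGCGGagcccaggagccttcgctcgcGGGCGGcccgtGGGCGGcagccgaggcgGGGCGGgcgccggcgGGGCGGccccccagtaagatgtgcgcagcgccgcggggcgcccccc
Grm2: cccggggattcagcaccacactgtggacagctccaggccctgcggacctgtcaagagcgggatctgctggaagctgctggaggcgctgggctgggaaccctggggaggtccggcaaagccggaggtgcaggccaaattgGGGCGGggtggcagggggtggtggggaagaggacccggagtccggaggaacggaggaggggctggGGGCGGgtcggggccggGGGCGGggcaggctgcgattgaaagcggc
Grm3: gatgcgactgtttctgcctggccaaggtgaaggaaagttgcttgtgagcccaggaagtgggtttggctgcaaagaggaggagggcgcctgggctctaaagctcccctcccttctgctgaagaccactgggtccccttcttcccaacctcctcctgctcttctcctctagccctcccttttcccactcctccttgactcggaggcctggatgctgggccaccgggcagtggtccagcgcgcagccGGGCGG
Slc17a7: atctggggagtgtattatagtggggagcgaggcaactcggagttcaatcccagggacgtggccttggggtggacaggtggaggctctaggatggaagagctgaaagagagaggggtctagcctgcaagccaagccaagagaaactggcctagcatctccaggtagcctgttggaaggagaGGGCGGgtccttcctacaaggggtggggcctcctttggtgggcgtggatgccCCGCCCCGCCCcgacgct

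These windows held 6 GC boxes for Grik3, 3 for Grm2, 1 for Grm3 and 3 for Slc17a7. At least 1 such box was present in 32.7% of all 32851 windows of this length and in 13 of the 26 windows listed for 21 members. The palindromic cAMP response element TGACGTCA was in none of the 26 windows, against 1.55% of all windows. A TATA box (TATAAA or TTTATA) was in 2 of the 26 windows, those of Grin3b and Slc1a3, against 12.4% of all windows. The GC content of the windows was 82.0% for Grik3, 71.2% for Grm2, 62.4% for Grm3 and 61.2% for Slc17a7, with a median of 60% over the windows of members and 52.4% over all windows. These are descriptions of letters, and no factor was measured.

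Levels between genes were compared per length, as RPKM, that is, CPM divided by the length in kilobases of all annotated exons of the gene. In WT vehicle mice the highest level among the receptors was that of Gria1, which encodes the AMPA subunit GluA1, at 174 ± 16.6 RPKM (SD, n = 4). Gria2, whose edited subunit GluA2 makes AMPA receptors impermeable to calcium, was at 38.5 ± 6.27 RPKM. Gria3 followed at 18.3 ± 1.94 RPKM and Gria4 at 9.27 ± 1.09 RPKM. On average over the 15 mice, Gria1 made up 72.1% ± 2.32 (SD) and Gria2 15.3% ± 1.48 of the AMPA receptor level per length. The exons of Gria2 add up to 15548 bases against 6043 for Gria1, so this order depends on which annotated exons the transcripts contain.

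Among the kainate receptor genes, Grik5, encoding a high-affinity subunit that needs a partner, was at 66.7 ± 7.20 RPKM (SD, n = 4) in WT vehicle mice. Grik4, the other high-affinity subunit, was at 12.02 ± 0.647, Grik3 at 7.60 ± 0.986, Grik2 at 5.44 ± 0.0760 and Grik1 at 2.37 ± 0.164 RPKM. Grik5 therefore made up 71.8% ± 2.51 (SD, n = 15) of this class per length. Of the NMDA receptor genes, Grin1, the subunit that every NMDA receptor contains, was highest at 50.9 ± 4.27 RPKM. The glutamate-binding subunits followed with Grin2b at 23.7 ± 2.97, Grin2a at 17.4 ± 2.34, Grin2c at 15.7 ± 2.503 and Grin2d at 2.54 ± 0.278 RPKM. The glycine-binding Grin3a was at 3.41 ± 0.0955 RPKM and Grin3b at 0.0825 ± 0.0400 RPKM, the latter from 3 to 14 reads per mouse. The delta receptor gene Grid1 was at 12.7 ± 0.844 RPKM.

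Of the metabotropic receptor genes, Grm5, which couples to phospholipase C, was highest at 19.1 ± 2.64 RPKM (SD, n = 4) in WT vehicle mice. The group II receptors, which lower cAMP and restrain release, were next, with Grm2 at 15.8 ± 1.82 and Grm3 at 12.7 ± 1.39 RPKM. The group III receptors Grm7, Grm4 and Grm8, which also inhibit release, were at 8.69 ± 1.43, 4.08 ± 1.38 and 0.745 ± 0.0907 RPKM. Grm6, best known from the retina, had 0 to 2 reads per mouse. Slc17a7, the vesicular transporter VGLUT1 of hippocampal pyramidal and granule cells, had the highest level of all 30 genes at 306 ± 26.9 RPKM. Slc17a6 (VGLUT2) was at 3.38 ± 1.24 and Slc17a8 (VGLUT3) at 1.02 ± 0.283 RPKM. Of the plasma membrane transporters, the astrocyte genes Slc1a2 (GLT-1) and Slc1a3 (GLAST) were at 185 ± 45.7 and 65.8 ± 3.79 RPKM, and the mainly neuronal Slc1a1 (EAAC1) at 13.2 ± 0.809 RPKM. When the 29 genes tested were ordered by these levels, the ranges of the WT vehicle mice overlapped for 19 of the 28 neighbouring pairs, among them Slc1a2 and Gria1, and Grin2b and Grm5. The ranges of Slc17a7 and Slc1a2, of Gria1 and Grik5, and of Grin1 and Gria2 were separate.

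**Figure D1:**
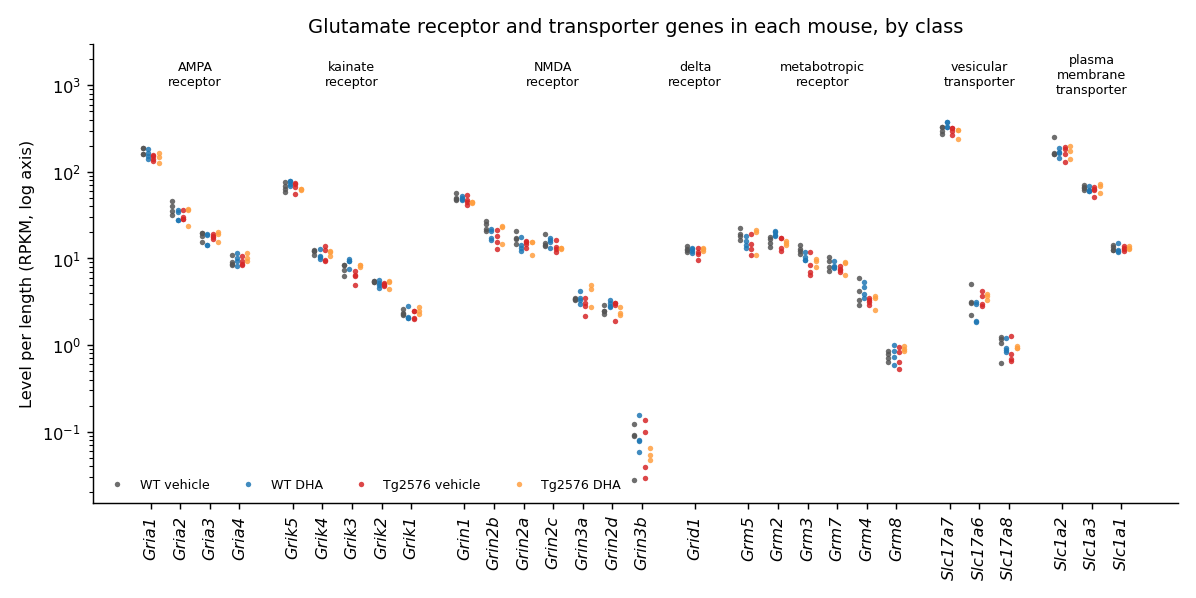
The level per length (RPKM, log axis) of 29 genes is plotted for each of the 15 mice, coloured by group and ordered by class; Grm6, with 0 to 2 reads per mouse, is left out. Slc17a7, Slc1a2 and Gria1 lie at the top, and Grin3b at the bottom.

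Since the counting took no account of strand, reads that cover exons of 2 genes were left out. Of the 30 genes, 16 share exonic bases with another gene, and 4 share over 10% of them. The highest shares were 32.1% for Grin3b and 31.9% for Slc1a1, whose levels may be understated. Among the genes called, the share was 9.60% for Grm2, 1.12% for Grin2b and 0 for Grm3, Grik3 and Slc17a7.

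The first comparison asked how the transgene changed these genes under vehicle. In Tg2576 vehicle mice, Grin2b and Grm3 fell relative to WT vehicle mice. These were 2 of 29 members at p under 0.01, against 3.09% of all genes tested, and the lower direction alone held 1.93% of all genes. By edgeR, 4 members had an unadjusted p under 0.05, where all genes gave 10.7%, and 0 had an adjusted p under 0.05, where all genes gave 0.0154%. The adjusted p of Grm3 was 0.0402 in DESeq2, the only member under 0.05 there, and limma-voom had 0. The levels of both groups did not overlap for 2 members, Gria1 and Grik2, against 5.16% of all genes. Whether the members were called more often than other genes was not tested.

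Grin2b (chromosome 6, 135713233 to 136173511, GRCm38), the subunit that gives NMDA receptors slow kinetics and binds CaMKII, was at 618, 679, 513 and 547 CPM in the WT vehicle mice and at 527, 454, 381 and 317 CPM in the Tg2576 vehicle mice. Only Tg2576 vehicle replicate 1 lay within the WT range, and replicate 4 was the lowest of all 15 mice. The means were 589 ± 73.9 and 419 ± 91.0 CPM (SD, n = 4 each). The log2 fold change was -0.49 ± 0.16 (SE), with an unadjusted p of 0.0084 and an adjusted p of 0.309, and the exact permutation p was 0.0571. With the length offset it was -0.27, with a p of 0.0055. Leaving out replicate 4 or 3 of the Tg2576 vehicle group gave a p of 0.0366 or 0.0262, leaving out replicate 2 or 1 of the WT vehicle group one of 0.0332 or 0.0209, and leaving out any of another 5 mice gave a p between 0.0102 and 0.0112. It was also above the threshold without TMM factors (0.0112) and without a filter on low counts (0.0132).

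Grm3 (chromosome 5, 9485541 to 9725170), a group II receptor of neurons and astrocytes, was at 44.1, 39.5, 33.9 and 37.5 CPM in the WT vehicle mice and at 19.7, 36.0, 21.5 and 25.3 CPM in the Tg2576 vehicle mice. The ranges overlapped through replicate 2 of the Tg2576 vehicle group alone. The means were 38.7 ± 4.24 and 25.6 ± 7.29 CPM (SD, n = 4 each). The log2 fold change was -0.59 ± 0.15 (SE), with an unadjusted p of 0.0012, an adjusted p of 0.193 and an exact permutation p of 0.0571. Grm3 stayed under a p of 0.01 in all 8 alternative fits and all 15 fits without 1 mouse, with log2 fold changes from -0.80 to -0.49. Its adjusted p ran from 0.0402 (DESeq2) to 0.324 over the 8 alternatives. Over the fits without 1 mouse it ran from 0.0427, without Tg2576 vehicle replicate 2 (the mouse within the WT range), to 0.537. With the length offset the log2 fold change was -0.63.

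Across classes, 26 of 29 members had a lower mean in Tg2576 vehicle mice, where 9761 of the 19536 genes tested did. The median log2 fold change was -0.15 over the members and 0.0003 over all genes. With the length offset 19 of 29 were lower and the median was -0.047, and without TMM factors, which move the median of all genes to 0.033, 21 of 29 were lower and the median was -0.11. Without WT vehicle replicate 2 the median was -0.096 with 24 lower, and over the fits without 1 mouse 21 to 27 were lower. By class, the median was -0.14 for the 4 AMPA, -0.084 for the 5 kainate, -0.20 for the 7 NMDA and -0.28 for the 6 metabotropic receptor genes tested. It was -0.023 for the vesicular and -0.12 for the plasma membrane transporters. The members above 0 were Grik5, Grin2d and Slc17a6.

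The genes with the highest level of their class did not pass the threshold under vehicle. Gria1 was at 969, 1130, 965 and 1150 CPM in WT vehicle and at 920, 856, 945 and 813 CPM in Tg2576 vehicle mice. Its groups did not overlap, the log2 fold change was -0.25 ± 0.10 (SE), the unadjusted p was 0.0225 and the exact permutation p was 0.0286, the smallest possible. Grm5 was at 198, 232, 169 and 184 CPM in WT vehicle and at 198, 149, 132 and 112 CPM in Tg2576 vehicle mice, with a log2 fold change of -0.41 ± 0.20 (SE). Slc1a2 was at 3331, 2151, 2112 and 2127 CPM in WT vehicle and at 2541, 2396, 2134 and 1713 CPM in Tg2576 vehicle mice, with a log2 fold change of -0.15 ± 0.16 (SE). One WT mouse, replicate 1, thus stood far above the others for this transporter. Grin1 was at 473, 553, 488 and 460 CPM against 519, 401, 438 and 463 CPM. Grid1 was at 70.1, 82.1, 76.2 and 73.9 CPM against 77.9, 67.2, 70.3 and 57.4 CPM. Their ranges overlapped, as did those of Grik5, with 306, 355, 391 and 326 CPM against 383, 287, 350 and 375 CPM.

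Markers of some cells differed in the same comparison, and their part in these results was not tested. Of the 5 markers of GABAergic interneurons, Gad1 and Gad2 fell, and the sum of the list was 860 ± 119 CPM in WT vehicle and 706 ± 29.0 CPM in Tg2576 vehicle mice. Of the 4 CA3 markers, Cpne4 and Nectin3 fell (sums of 147 ± 13.5 and 115 ± 12.2 CPM), and of the 4 dentate markers, Prox1 fell (306 ± 32.5 and 274 ± 20.7 CPM). None of the 5 general neuronal markers was called in edgeR, with sums of 4834 ± 273 and 4702 ± 58.6 CPM, and 1 had a p under 0.05. Of the 5 astrocyte markers, Gfap rose and 2 were lower. Gfap was at 543, 568, 544 and 670 CPM in WT vehicle and at 830, 1283, 1465 and 1135 CPM in Tg2576 vehicle mice. The sums of the list, which include Gfap, were 1781 ± 94.3 and 2443 ± 252 CPM. In the other lists, 2 CA3, 2 dentate, 1 interneuron and 1 general neuronal marker were higher in Tg2576 vehicle mice. These markers were named after their values were seen.

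The second comparison asked whether Tg2576 and WT mice differed when both were given DHA. Here the genes that fell in Tg2576 mice were Grm2 and Slc17a7, again 2 of 29 members, against 1.75% of all genes tested, with 0.686% in the lower direction. By edgeR, 4 members had an unadjusted p under 0.05 (6.86% of all genes), and 0 had an adjusted p under 0.05 (0.00512% of all genes). The groups did not overlap for 6 members, against 8.56% of all genes. These were Grik5, Grin1, Grin2d, Grm2 and Slc17a7, which were lower in every Tg2576 DHA mouse, and Slc17a6, which was higher.

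Slc17a7 (chromosome 7, 45163949 to 45176142) was at 2053, 1792, 1773 and 2052 CPM in the WT DHA mice and at 1309, 1649 and 1657 CPM in the Tg2576 DHA mice. All WT DHA mice were above all Tg2576 DHA mice, and replicate 1 of the latter was the lowest of all 15. The means were 1917 ± 156 CPM (SD, n = 4) and 1538 ± 199 CPM (SD, n = 3). The log2 fold change was -0.32 ± 0.11 (SE), with an unadjusted p of 0.0083, an adjusted p of 0.560 and an exact permutation p of 0.0286 on log2 levels. Without Tg2576 DHA replicate 1 the log2 fold change was -0.21 with a p of 0.0659, it also missed the threshold with only both DHA groups fitted, and leaving out WT DHA replicate 1 or 4, or WT vehicle replicate 2 or 3, also gave a p above 0.01 (0.0102 to 0.0252). Summed choroid plexus markers were at 3074 to 5121 CPM in the Tg2576 DHA mice and at 60.1, 348, 5786 and 147 CPM in the WT DHA mice, and the WT DHA mouse with the most of them had the lowest Slc17a7 of its group. Its part in the difference was not tested.

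Grm2 (chromosome 9, 106643095 to 106656082) was at 97.9, 91.9, 89.1 and 101 CPM in the WT DHA mice and at 74.3, 78.4 and 69.2 CPM in the Tg2576 DHA mice. The ranges were separate, and the WT DHA mice were also above every other mouse of the study. The means were 95.1 ± 5.59 CPM (SD, n = 4) and 74.0 ± 4.63 CPM (SD, n = 3). The log2 fold change was -0.36 ± 0.12 (SE), with an unadjusted p of 0.0097 and an adjusted p of 0.565, and an exact permutation p of 0.0286. It lay close to the threshold, with a p of 0.0102 in limma-voom and 0.0157 without TMM factors, and the p rose to 0.0107 to 0.0439 on leaving out any of 9 mice, the highest being Tg2576 DHA replicate 3. Without TMM factors Slc17a7 also missed the threshold (0.0105), so that no member was called there, where 1.76% of all genes were. In that fit 3 members had a p under 0.05.

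Over the 29 members, 14 were lower in Tg2576 DHA than in WT DHA mice, where 50.7% of all genes were. The median log2 fold change was 0.0061, against -0.0035 over all genes. The sign of this median turned with single mice. It was 0.10 with 12 members lower without Tg2576 DHA replicate 1, -0.052 with 18 lower without replicate 2 and -0.061 with 18 lower without replicate 3 of that group. It was also below 0 without WT DHA replicate 3 (-0.034) or 4 (-0.032), and 0.057 without replicate 1. The signs differed by class. The 3 plasma membrane transporters had a median of 0.045 and the 4 AMPA receptor genes one of 0.059, while the NMDA receptor genes had a median of -0.16 and the metabotropic genes one of -0.12. Slc17a6, at 10.2, 16.2, 17.2 and 10.03 CPM in WT DHA and 19.8, 21.1 and 17.9 CPM in Tg2576 DHA mice, had a log2 fold change of 0.55 ± 0.25 (SE) with an unadjusted p of 0.0400, an adjusted p of 0.705 and an exact permutation p of 0.114. Grik5 was at 402, 360, 377 and 406 CPM in WT DHA and at 332, 319 and 327 CPM in Tg2576 DHA mice, a log2 fold change of -0.25 ± 0.10 (SE) with an unadjusted p of 0.0295. Grin1 was at 514, 465, 468 and 487 CPM against 422, 437 and 437 CPM. Thus all 3 were separate between the groups without passing the threshold.

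For the other genes with the highest level of their class, the ranges overlapped under DHA. Gria1 was at 1100, 915, 853 and 991 CPM in WT DHA and at 764, 905 and 991 CPM in Tg2576 DHA mice. Slc1a2 was at 2469, 2215, 2175 and 1905 CPM against 1867, 2259 and 2581 CPM. Grid1 was at 72.0, 78.4, 75.7 and 69.3 CPM against 72.7, 77.8 and 76.1 CPM. Grm5 was at 165, 186, 148 and 135 CPM against 111, 205 and 220 CPM. For these 4 genes the lowest Tg2576 DHA mouse was replicate 1. Markers that moved in this comparison were the microglial genes Cx3cr1, P2ry12 and Csf1r and the astrocyte gene Gfap, which rose. The CA1 marker Wfs1 and the thalamic marker Prkcd fell. All 6 microglial markers were higher in Tg2576 DHA mice, but 2 of the 5 astrocyte markers were lower. Of the 4 CA1 markers 1 was higher, and of the 5 thalamic markers 2 were higher. The part of these markers in these results was not tested.

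**Figure D2:**
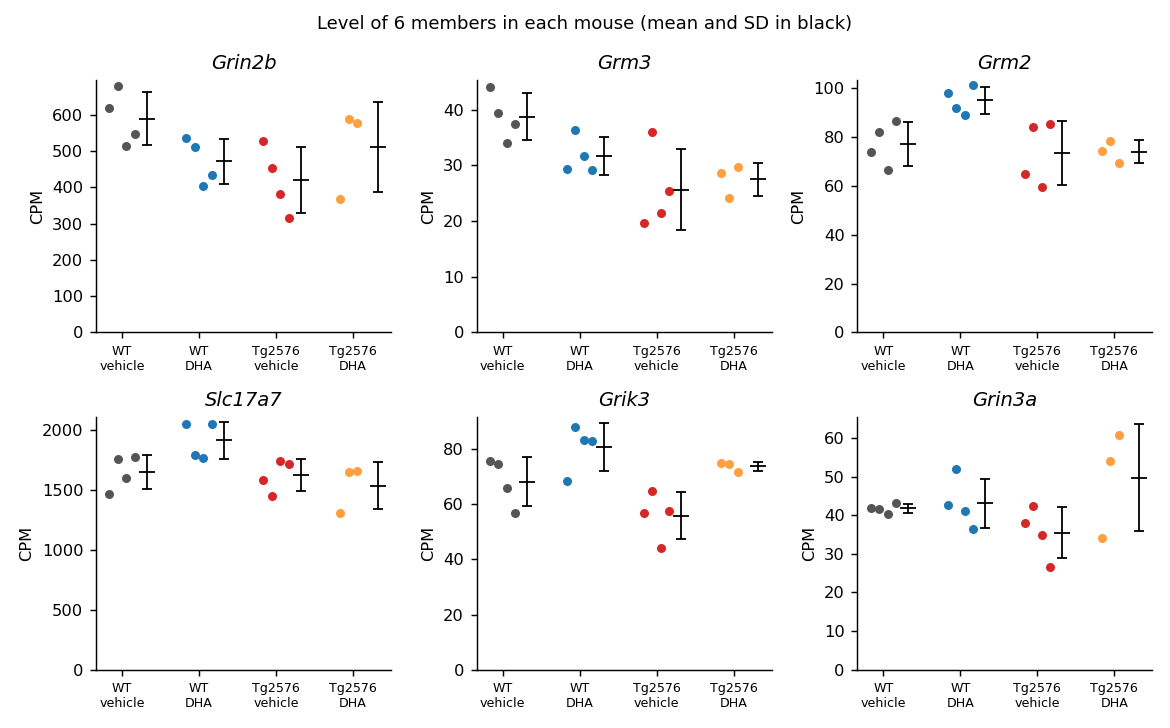
Points show the level in CPM of Grin2b, Grm3, Grm2, Slc17a7, Grik3 and Grin3a in each mouse of the 4 groups, with mean and SD in black. Tg2576 DHA replicate 1 lies below its group for Grin2b, Slc17a7 and Grin3a, and the 4 WT DHA mice lie above all others for Grm2.

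The third comparison concerned DHA in WT mice. By edgeR, 0 of 29 members were called at p under 0.01, where 1.38% of all genes were, 2 had a p under 0.05 (5.92% of all genes) and 0 had an adjusted p under 0.05 (0% of all genes). DESeq2 and limma-voom also called 0, where 1.16% and 1.46% of all genes were called. The groups did not overlap for 1 member, Grm2, against 5.02% of all genes. It was at 74.0, 82.1, 66.3 and 86.4 CPM in WT vehicle mice, below all 4 WT DHA mice. Its log2 fold change was 0.30 ± 0.11 (SE), with an unadjusted p of 0.0175, an adjusted p of 0.749 and an exact permutation p of 0.0286. It was called when only both WT groups were fitted (p of 0.0043) and when no filter was applied (0.0095). In the same comparison the CA1 markers Wfs1 and Mpped1 rose (sums of the 4 markers of 695 ± 42.4 and 785 ± 49.5 CPM). Another CA1 marker, Pou3f1, was lower with DHA. Its levels were 68.1, 81.5, 72.5 and 77.7 CPM in WT vehicle and 60.8, 49.4, 57.3 and 70.2 CPM in WT DHA mice. The dentate marker Prox1 fell, while 2 of the 4 dentate markers were higher. The part of these markers in the result was not tested.

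Slc17a7 was the other member with a p under 0.05. It was at 1471, 1764, 1600 and 1774 CPM in WT vehicle mice, and its log2 fold change with DHA was 0.21 ± 0.10 (SE) with an unadjusted p of 0.0429 and an exact permutation p of 0.0571. Slc17a6 had a log2 fold change of -0.45 ± 0.23 (SE) from 27.7, 16.8, 11.96 and 16.5 CPM in WT vehicle mice, with a p of 0.0676. Grin2b had one of -0.32 ± 0.16 (SE) from its vehicle mean of 589 to 471 ± 62.8 CPM (SD, n = 4), with a p of 0.0666. Of the members, 19 of 29 were lower with DHA, where 52.7% of all genes were. The median was -0.064 over the members, -0.078 to -0.033 without 1 mouse, and -0.013 over all genes, and with the length offset both were close to 0, at -0.0027 and -0.0026.

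The fourth comparison concerned DHA in Tg2576 mice, where Grik3 rose. It was 1 of 29 members at p under 0.01, against 0.353% of all genes tested and 0.159% in the higher direction. By edgeR, 2 members had a p under 0.05 (3.16% of all genes) and 0 had an adjusted p under 0.05 (0% of all genes). Grik3 was also the 1 member whose groups did not overlap, against 3.21% of all genes.

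Grik3 (chromosome 4, 125490700 to 125714173) encodes GluK3, a kainate receptor subunit of low glutamate affinity. It was at 56.8, 64.7, 44.2 and 57.6 CPM in the Tg2576 vehicle mice and at 74.7, 74.7 and 71.7 CPM in the Tg2576 DHA mice. The DHA mice lay close together and above all 4 vehicle mice. The means were 55.8 ± 8.53 CPM (SD, n = 4) and 73.7 ± 1.70 CPM (SD, n = 3). The log2 fold change was 0.40 ± 0.13 (SE), with an unadjusted p of 0.0052, an adjusted p of 0.999 and an exact permutation p of 0.0571. The p was 0.0205 without Tg2576 vehicle replicate 3, where the log2 fold change was 0.30, and 0.0101 to 0.0151 without any one of the 3 Tg2576 DHA mice. It was 0.0110 when only both Tg2576 groups were fitted. In WT mice Grik3 was at 75.5, 74.7, 65.7 and 56.7 CPM with vehicle and at 68.2, 88.0, 83.4 and 83.0 CPM with DHA, a log2 fold change of 0.24 ± 0.12 (SE) with a p of 0.0515. The difference between the genotypes, tested as the interaction, was 0.16 ± 0.17 (SE) with an unadjusted p of 0.370.

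Grin3a, a subunit that lowers the calcium permeability of NMDA receptors, was at 37.9, 42.5, 34.8 and 26.7 CPM in Tg2576 vehicle mice and at 34.2, 54.0 and 60.9 CPM in Tg2576 DHA mice. Replicates 2 and 3 given DHA were thus above every vehicle mouse and replicate 1 was not. Its log2 fold change was 0.49 ± 0.17 (SE) with an unadjusted p of 0.0117 and an adjusted p of 0.999. DESeq2 and the length offset called it. Without Tg2576 DHA replicate 1, Grin3a, Grin2b and Grm5 were called, with log2 fold changes of 0.70, 0.48 and 0.53, while Grik3 had a p of 0.0128. In that fit 1.56% of all genes were called, so calls rose among all genes as well. Without replicate 2 or 3 of the same group, 0 members were called, against 0.36% and 0.264% of all genes.

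Over the members, 22 of 29 were higher with DHA in Tg2576 mice, where 9590 of the 19536 genes tested were. The median log2 fold change was 0.031, against -0.0039 over all genes. It was 0.12 with 6 members lower without Tg2576 DHA replicate 1, 0.0030 with 14 lower without replicate 2 and 0.038 with 13 lower without replicate 3 of that group. It was 0.12 without Tg2576 vehicle replicate 1 and 0.068 without replicate 2. With the length offset the median was 0.0017, and 14 of 29 members were lower. By class, the median was 0.046 for the AMPA, 0.024 for the kainate, -0.075 for the NMDA and 0.10 for the metabotropic receptor genes. It was 0.084 for the vesicular and 0.027 for the plasma membrane transporters. Of the 7 NMDA receptor genes, 5 were lower with DHA. The 6 metabotropic receptor genes tested ran from 0.0046 for Grm4 to 0.30 for Grm8, with 0 at an unadjusted p under 0.05 in edgeR. Of other tissue markers, the thalamic Prkcd and the oligodendrocyte gene Mobp fell, and in each of these lists 1 of 5 markers was higher. The thalamic sums, which include Prkcd, were 73.0 ± 8.52 CPM with vehicle and 52.3 ± 2.34 CPM with DHA. Prkcd alone was at 56.0, 42.6, 49.7 and 42.6 CPM with vehicle and at 28.7, 29.1 and 30.6 CPM with DHA. The oligodendrocyte sums were 6946 ± 1123 and 5789 ± 761 CPM, and the choroid plexus sums 1218 ± 1346 and 3821 ± 1130 CPM. Their part in the result was not tested. Of the markers of subiculum, neocortex and striatum, and of the choroid plexus, none was called in any comparison in edgeR, with at most 2 of a list at a p under 0.05.

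**Figure D3:**
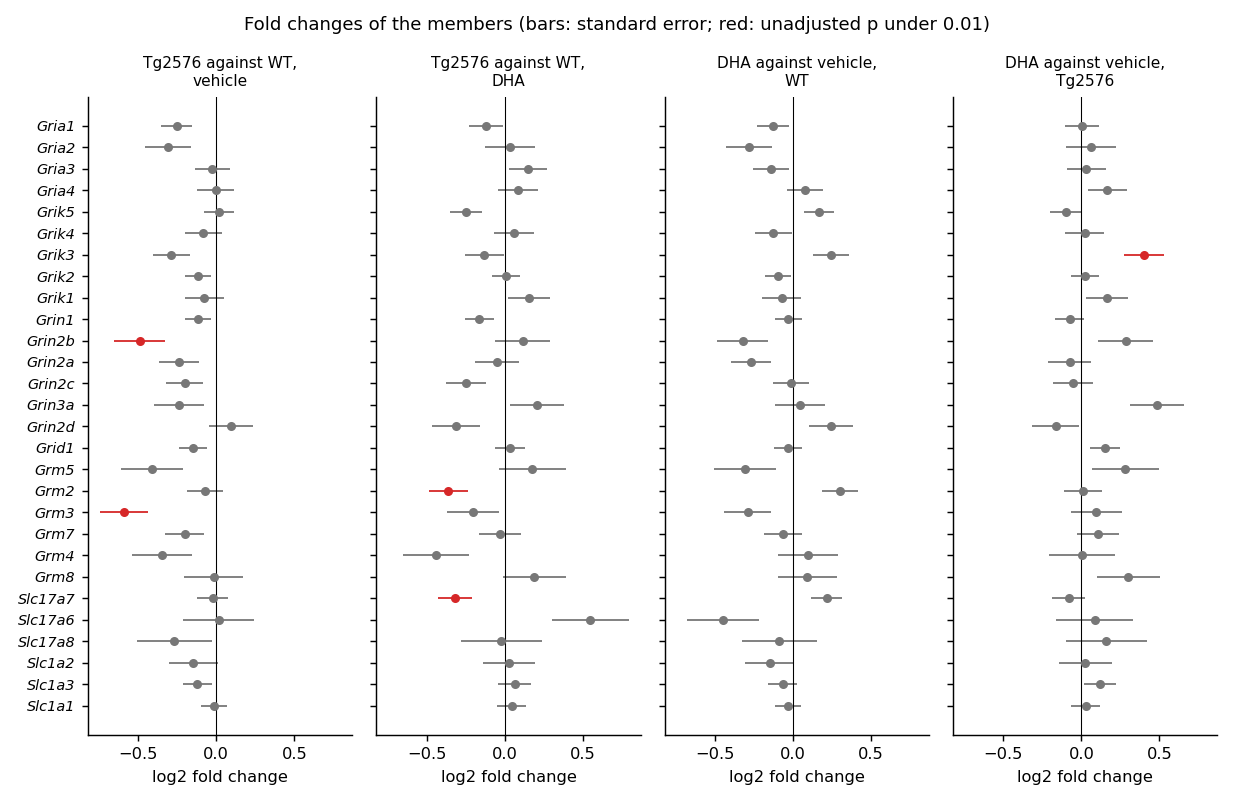
The log2 fold change of 28 members is plotted for the 4 comparisons of 2 groups, with bars for the standard error and red for an unadjusted p under 0.01; Grin3b, with 3 to 14 reads per mouse, is left out. Most points of the first panel (Tg2576 against WT, vehicle) lie below 0, and the red points are Grin2b and Grm3, then Grm2 and Slc17a7, and Grik3 in the last panel.

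The fifth comparison was the interaction, that is, whether DHA acted differently in Tg2576 and WT mice. By edgeR, 0 of 29 members passed p under 0.01, where 0.829% of all genes did, 1 had a p under 0.05 (5.12% of all genes), and 0 had an adjusted p under 0.05 (0% of all genes). DESeq2 and limma-voom also called 0, where 0.758% and 0.793% of all genes were called. The member with a p under 0.05 in edgeR was Grin2b, with an interaction of 0.61 ± 0.24 (SE, 95% interval 0.099 to 1.12), an unadjusted p of 0.0221 and an adjusted p of 0.845. Its level went from 589 to 471 CPM with DHA in WT mice and from 419 to 511 ± 124 CPM (SD, n = 3) in Tg2576 mice, where the DHA mice were at 368, 588 and 577 CPM. With the length offset the Grin2b interaction was 0.34 (p of 0.0129), and without Tg2576 DHA replicate 1 it was 0.79 (p of 0.0018). Without that mouse, Grin3a and Grm5 passed as well, with interactions of 0.65 and 0.83, in a fit that called 2.64% of all genes. Without Tg2576 DHA replicate 2 or 3, 0 members passed p under 0.01, against 0.645% and 0.474% of all genes. The median interaction was 0.17 over the members, against 0.0043 over all genes, and 0.051 with the length offset.

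Ratios between members of 1 class cancel changes that both share, and are given per length with no test. The ratio of Grin2b to Grin2a, the balance of the main NMDA receptor types that shifts during brain maturation, was 1.36 ± 0.0877 (SD, n = 4) with vehicle and 1.32 ± 0.155 with DHA in WT mice. It was 1.13 ± 0.157 with vehicle and 1.46 ± 0.104 (n = 3) with DHA in Tg2576 mice. The 3 Tg2576 DHA mice (1.34, 1.53 and 1.504) were above all Tg2576 vehicle mice (1.33, 1.19, 1.05 and 0.972), though by a small margin. The exons of Grin2b add up to 24842 bases and those of Grin2a to 17933. The ratio of Grm2 to Grm3 was lowest in WT vehicle mice, at 1.05, 1.30, 1.22 and 1.44, and was 1.45 to 2.17 in the 11 other mice. No other group thus overlapped with WT vehicle, though here too the margin was small. The ratio of Gria2 to Gria1 was 0.221 ± 0.0339, 0.199 ± 0.0238, 0.212 ± 0.0208 and 0.219 ± 0.0313 in the same order of groups, with overlap between all of them. The ratio of Slc1a2 to Slc1a3 lay between 2.32 and 3.90 in all mice.

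**Figure D4:**
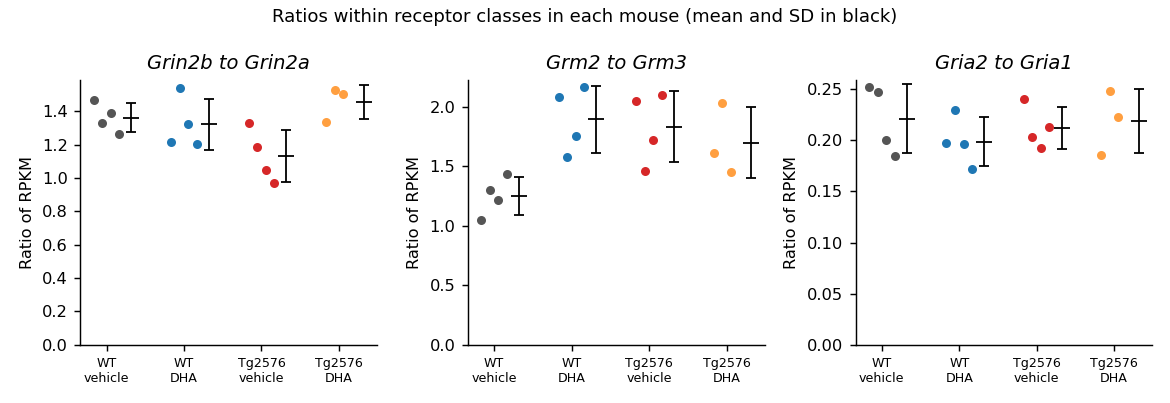
The ratio of the levels per length (RPKM) of Grin2b to Grin2a, Grm2 to Grm3 and Gria2 to Gria1 is plotted for each mouse, with mean and SD in black. The 4 WT vehicle mice lie below all others for Grm2 to Grm3, and 3 Tg2576 vehicle mice lie below all others for Grin2b to Grin2a.

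The members also differed in level between single mice. The median deviation of the 29 genes from their mean over mice ranged from -0.20 on the log2 scale in Tg2576 vehicle replicate 4 to 0.13 in WT vehicle replicate 1. Tg2576 DHA replicate 1 had the lowest level of the 15 mice for 7 members, Tg2576 vehicle replicate 4 for 6 and Tg2576 vehicle replicate 2 for 5. WT vehicle replicate 2 had the highest level for 7 members and WT DHA replicate 2 for 5. The mice with the lowest medians included those with the lowest balance of long to short genes, namely Tg2576 DHA replicate 1 and Tg2576 vehicle replicate 4.

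**Figure D5:**
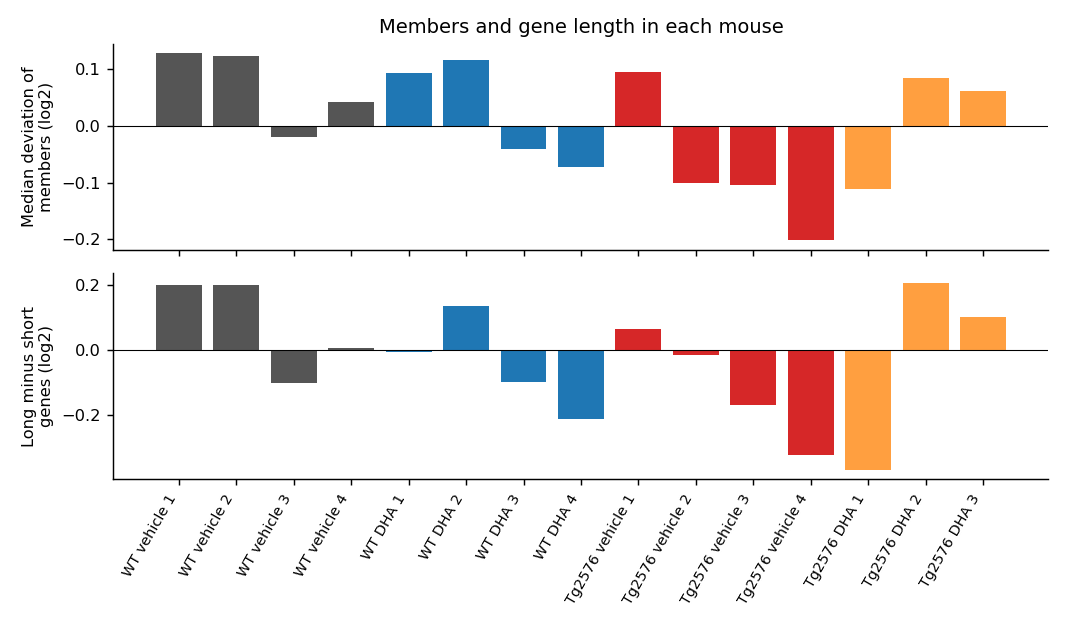
For each mouse, the upper bars give the median deviation of the 29 members from their mean over mice (log2), and the lower bars the median deviation of the longest quartile of genes less that of the shortest (log2). Tg2576 vehicle replicate 4 is lowest in the upper bars at -0.20 and Tg2576 DHA replicate 1 in the lower bars at -0.37.

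Proteins that accompany these receptors and enzymes that supply glutamate were examined as lists in the same fit. Of 17 auxiliary subunits of AMPA and kainate receptors and pentraxins, 2 fell in Tg2576 vehicle mice. Of all genes, 3.09% were called there, and 1.93% in the lower direction. The 2 were Shisa6 (log2 fold change -0.49 ± 0.15, SE) and Cacng8 (-0.39 ± 0.12), both AMPA receptor partners that shape gating and synaptic anchoring. The lowest adjusted p of the list was 0.282 in edgeR, and the levels of both groups overlapped for all 17. Shisa6 was at 178 ± 21.2 CPM in WT vehicle and 127 ± 18.8 CPM in Tg2576 vehicle mice (SD, n = 4 each), and Cacng8 at 124 ± 16.7 and 94.7 ± 14.5 CPM. Gsg1l, another AMPA receptor partner, rose with DHA in WT mice by 0.45 ± 0.15 (SE), from 49.6 ± 5.85 to 67.8 ± 3.05 CPM. Its unadjusted p in edgeR was 0.0068 and its adjusted p 0.647, and 1.38% of all genes were called in that comparison. In the other 3 comparisons none of the 17 was called in edgeR, with 4, 1 and 1 genes at a p under 0.05 for genotype under DHA, DHA in Tg2576 mice and the interaction. The median of this list was -0.11 under vehicle and -0.15 under DHA between the genotypes. Of 12 genes for glutamate and glutamine metabolism and transport, none was called in any comparison in edgeR, with at most 1 gene at a p under 0.05. That gene was Slc7a11, the cystine and glutamate exchanger, at 21.3 ± 3.44 CPM in WT vehicle, 39.9 ± 11.8 in WT DHA, 36.6 ± 7.80 in Tg2576 vehicle and 45.3 ± 23.1 in Tg2576 DHA mice.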

How the data were processed

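RNA of 15 hippocampi was sequenced by the authors, who aligned reads with STAR 2.6.1c to GRCm38 and counted them per gene of GENCODE M25 with featureCounts 1.6.0, ignoring strand. Raw counts of 55401 genes a mouse were deposited. The labels name a SMARTER kit and the paper a TruSeq Stranded kit. Total counts were 17372864 to 46596489, and few reads limit the values of Grin3b and Grm6.

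The analysis used edgeR 4.0.16 in R 4.3.3 (TMM, filterByExpr with a minimum count of 10, robust quasi-likelihood F tests, 4 groups). The common biological coefficient of variation was 20.1%. Each standard error was obtained from a fold change and its F value. Exact permutation tests, two-sided, used log2 CPM with a prior count of 2. Symbols came from a gene table for 55141 genes. Alternatives were DESeq2 1.42.0, limma-voom (limma 3.58.1), no TMM factors, no filter, only the groups compared, the replicate number as a block, an offset for gene length (lowess span 0.3), block and offset together, and leaving out each of 15 mice. The workflow was tested on simulated data. Figures were drawn with Python and matplotlib.

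The members and lists were chosen with earlier results of these data known. Values in every mouse are given for members with p under 0.01 and the highest member of each class per length. At most 4 genes of each partner list with p under 0.01 are named, by lowest p, and Grin3a, Slc17a6, the promoters and the ratios were added after their values were seen. A marker gene is not reported here.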

Additional observations from a re-analysis of the deposited data

Results flagged for a closer look

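In each group of 4 mice, the highest and the lowest value of each member were compared with the others by Dixon's ratio, and 5 of 87 pairs of member and group were beyond its 95% critical value, where chance flags about 1 in 20. Slc1a2 was at 3331 CPM in WT vehicle replicate 1 and between 2112 and 2151 CPM in the others of that group. Grik1 was at 18.8 CPM in WT DHA replicate 2 and between 13.7 and 14.2 CPM in the others. Grik4 was at 65.9 CPM in WT vehicle replicate 3 and between 73.1 and 74.1 CPM in the others. Grin2d was at 12.6 CPM in Tg2576 vehicle replicate 2 and between 19.2 and 20.4 CPM in the others. Slc1a3 was at 591 CPM in WT DHA replicate 2 and between 513 and 525 CPM in the others.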

How the results depend on the processing

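The number of members called at p under 0.01 changed with the setting, as did the share of all genes called, given in brackets. For genotype under vehicle the number was 2 (3.09%), and 1 without TMM factors (2.93%) or without a filter (2.02%). For genotype under DHA it was 2 (1.75%). There it was 1 in limma-voom (1.89%), 1 with only the groups compared (1.57%) and 0 without TMM factors (1.76%). For DHA in WT mice it was 0 (1.38%), and 1, Grm2, without a filter (0.998%) or with only the groups compared (2.39%). For DHA in Tg2576 mice it was 1 (0.353%). There it was 2 in DESeq2 (0.403%), 2 with the length offset (0.537%) and 0 with only the groups compared (0.156%). Leaving out 1 mouse gave 1 to 3 members, 0 to 2, 0 to 1, 0 to 3 and, for the interaction, 0 to 3, while the share of all genes called ran from 1.6% to 4.95%, 0.971% to 2.3%, 0.805% to 1.66%, 0.264% to 1.56% and 0.449% to 2.64%. The median interaction of 0.17 was 0.051 with the length offset, 0.066 with the replicate block and the length offset, and 0.099 to 0.21 on leaving out 1 mouse. The cause of these changes was not tested. None of the 5 called results changed sign in the 8 alternatives or the 15 fits without 1 mouse.

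Mice that share a replicate number did not deviate together, with correlations from -0.24 to 0.21, 4 of 21 pairs above 0.1, and 5 of 15 mice closest to their own number. With the replicate block, 1 member (Grm2) was called for genotype under DHA, where 1.26% of all genes were. For DHA in WT mice 1 (Grm2) was called with the block (1.59% of all genes) and with block and length offset (1.79%). Slc17a7 had a p of 0.0179 for genotype under DHA with the block, and 0.0096 with block and length offset. Grik3 had a p of 0.0066 for DHA in Tg2576 mice with the block and 0.0111 with block and length offset. In the latter fit Grin3a (0.0053) was the 1 member called, against 0.374% of all genes.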
